A study of Mus musculus with 36 samples.

Results

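Chac1, Trib3, Asns, Ddit3, Atf4, Sesn2, Nupr1, Gdf15, Psat1 and Phgdh are genes of the integrated stress response, and their messenger RNA was followed here in mouse intestinal organoids given retinoids or an antagonist of the retinoid X receptor. These 10 genes were taken by symbol from the 12652 genes of the deposited expression table, in which all 10 were listed, and all 10 were among the 11361 genes tested. The rule was pathway membership with no threshold on a measured value, although the genes were chosen with earlier results of these data known. The plainest result was a rise of 8 of the 10 genes over DMSO after 24 h with the RXR antagonist. In fold changes of RPKM + 0.5 (RPKM is defined below), the largest rises were those of Chac1 (5.87-fold), Nupr1 (4.96-fold) and Trib3 (4.84-fold). The order of Nupr1 and Trib3 depended on the added 0.5. Of all genes tested, 61.5% were called in that comparison and 31.1% were called higher. Sesn2 and Gdf15 were not called in that comparison.

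The integrated stress response begins with kinases that sense amino acid shortage, misfolded protein in the endoplasmic reticulum (ER), double-stranded RNA or haem shortage and phosphorylate the translation factor eIF2. Most translation then slows while the mRNA of the transcription factor ATF4 is translated more, and ATF4, paired with partners such as C/EBP proteins, activates genes for amino acid synthesis and import, tRNA charging and redox balance. Among its products are the factor CHOP (gene Ddit3) and proteins that damp the response, and in the intestinal epithelium the pathway is best known from ER stress in secretory cells. Phosphorylation of eIF2 and ATF4 protein were not measured here. Retinoic acids bind retinoic acid receptors, which work as pairs with retinoid X receptors (RXR). All-trans retinoic acid binds retinoic acid receptors, and its 9-cis isomer, which differs in the geometry of a carbon double bond, binds the retinoid X receptors as well.

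Treated organoids received the RXR antagonist (labelled RXRi, 5 µM), 9-cis retinoic acid (9cisRA, 10 µM) or all-trans retinoic acid (atRA, 10 µM) for 6 h or 24 h, against DMSO for the same time, and a further group was taken at 0 h before treatment. All 9 groups were wild-type C57BL/6 organoids grown from single cells, from cultures of 2 male littermates aged 8 weeks. All had first spent 3 days with a GSK3B inhibitor, a ROCK inhibitor and conditioned medium holding Wnt3a, and in the treated and DMSO groups treatment began as these were withdrawn. EGF, Noggin, R-spondin and N-acetylcysteine were part of the medium over all these days. Each RNA sample pooled 3 wells, and RNA was purified in duplicate from each culture, so that a group has 4 libraries but n = 2 mice. Values are RPKM (reads per kilobase of gene length, scaled to library size), and errors on RPKM are SDs over the 2 mouse means. Fold changes are differences of log2(RPKM + 0.5) with their standard errors, which understate the change of low genes. A gene was called at a Benjamini-Hochberg adjusted p below 0.05 from limma, with the mouse as a term. With 2 mice, such p-values lean on the spread that limma pools over groups and genes.

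The 36 libraries held 19.6 to 30.7 M recovered reads over the listed genes, and none stood apart from its duplicate (r across genes 0.994 to 0.998). Among the 10 genes the fewest reads in any library were 82 for Chac1, 102 for Trib3, 139 for Gdf15 and 150 for Ddit3, and the other 6 genes had 714 or more. The labelled tissue fitted its markers: Epcam, Cdh1, Krt8, Krt18 and Krt20 summed to between 6012 RPKM in a 24 h DMSO library and 12539 RPKM in a 24 h RXRi library, whereas 0 of 5 fibroblast markers and 2 of 5 immune markers were listed. In RNA from whole organoids, fewer cells of a type and less RNA per cell cannot be told apart.

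Of the 10 genes, 4 carry near a RefSeq start the core of the C/EBP-ATF response element, and they are printed to show its place. This element is the DNA site through which ATF4 and C/EBP proteins act. The core was searched as TGATGNAA, or its complement TTNCATCA, in the 300 bases from 250 before to 50 after the start in RefSeq (GRCm38.p6, the assembly also called mm10), where all 10 genes matched, with 12 promoters. It was found for Chac1, Trib3, Asns and Nupr1, against 3.97% of all 32851 promoters in the table. The members are counted here by gene and the table by promoter, so the units differ. The matches are shown in capitals, 5′ to 3′ on the strand of the gene.
Chac1 chr2:119351023-119351082, plus strand: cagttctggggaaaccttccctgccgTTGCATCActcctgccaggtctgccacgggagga
Trib3 chr2:152344031-152344072, minus strand: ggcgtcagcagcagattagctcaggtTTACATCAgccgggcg
Asns chr6:7693199-7693258, minus strand: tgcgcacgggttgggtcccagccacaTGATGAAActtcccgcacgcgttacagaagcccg
Nupr1 chr7:126625547-126625606, minus strand: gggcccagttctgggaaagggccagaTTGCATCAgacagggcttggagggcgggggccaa
Counted from the RefSeq start, the match began at base -193 in Chac1, -110 in Nupr1 and -23 in Asns. In Trib3 it began at base 15 after the start, and in Chac1, Trib3 and Nupr1 it lay in the complement orientation. The ER stress element (CCAAT, 9 bases of any kind, then CCACG, either strand) was found for 0 of the 10 genes and in 0.119% of all promoters. A match is a description of these letters, and its absence in the other 6 genes says only that they are not in this window. For Nupr1 and Asns the match lies before the RefSeq start used, but inside the gene as GENCODE M21 places it. For Trib3 the match lies after the RefSeq start, but before the gene in GENCODE M21. For Chac1 it lies before both starts. Chac1 lies on chromosome 2 (119351229 to 119354381, plus strand), Trib3 on chromosome 2 (152337422 to 152344032, minus strand), Asns on chromosome 6 (7675169 to 7693254, minus strand) and Nupr1 on chromosome 7 (126623249 to 126630861, minus strand), in GENCODE M21 coordinates on GRCm38. On the same assembly Ddit3 lies on chromosome 10 (127290774 to 127296288, plus strand), Atf4 on chromosome 15 (80255184 to 80257541, plus strand), Sesn2 on chromosome 4 (132492032 to 132510501, minus strand), Gdf15 on chromosome 8 (70629393 to 70632456, minus strand), Psat1 on chromosome 19 (15904678 to 15947337, minus strand) and Phgdh on chromosome 3 (98313170 to 98339990, minus strand).

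**Figure D1:**
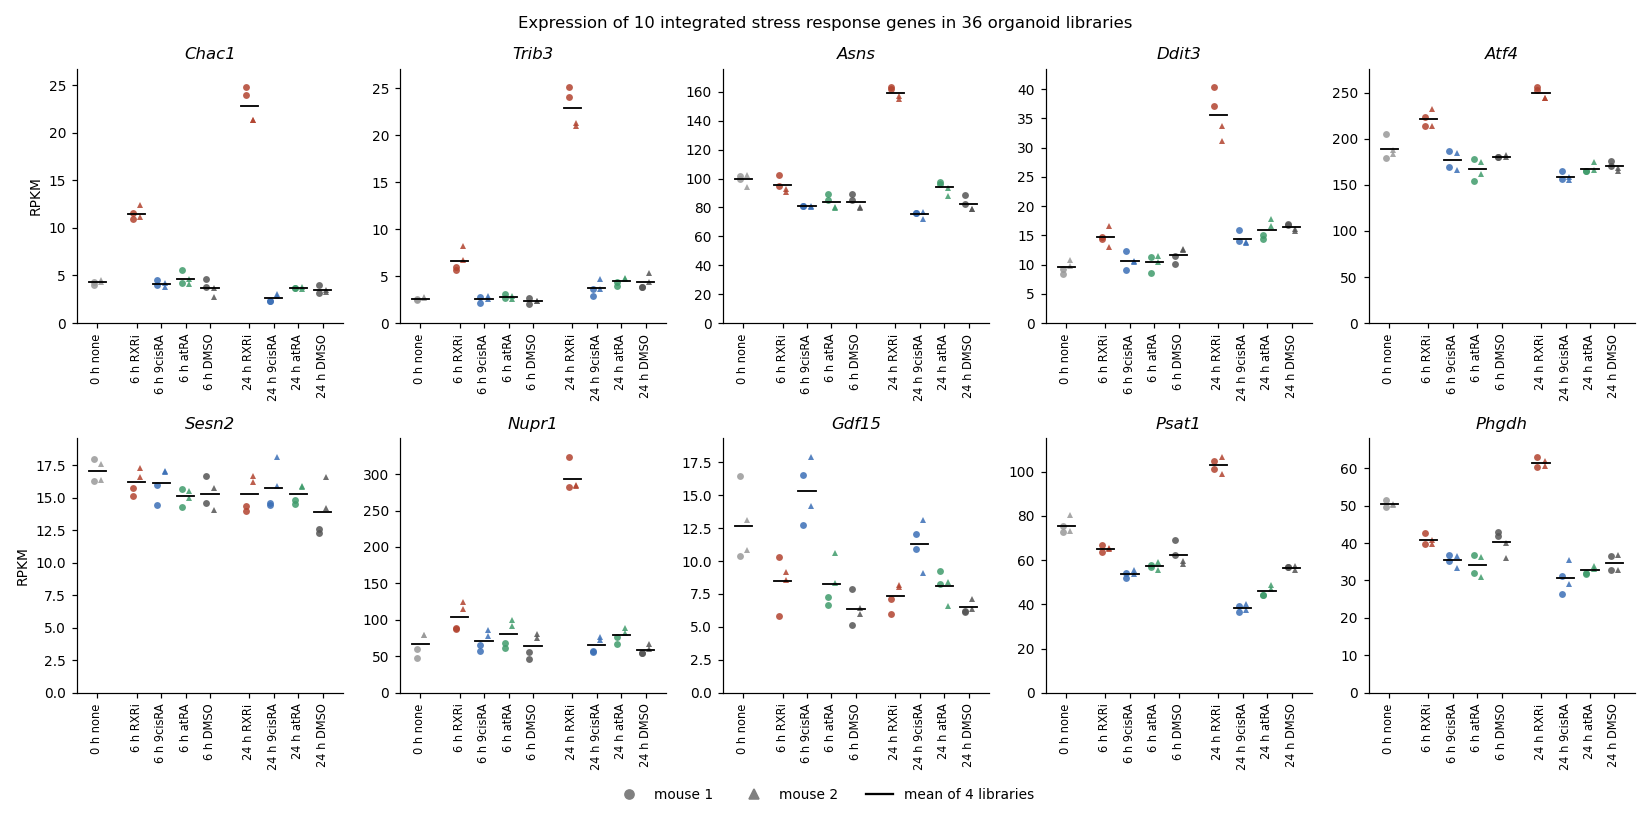
RPKM (vertical axis, from 0, a scale for each gene) of the 10 genes in each of 36 libraries, by group along the horizontal axis, with circles for mouse 1, triangles for mouse 2 and a line at the mean of 4 libraries. In 8 genes all 4 libraries of RXRi at 24 h lie above the 32 other libraries, as in 7.99% of all genes tested. Gdf15 is instead high with 9cisRA and at 0 h.

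After 24 h with RXRi, 8 of the 10 genes were higher than with DMSO and none was lower. Of all genes tested, 61.5% were called in this comparison in either direction and 31.1% were called higher. The median log2 fold change of the 10 genes was 0.90, beside 0.00076 over all genes tested. In these 8 genes the lowest of the 4 RXRi libraries at 24 h also lay above the highest of the 32 libraries of all other groups, as in 7.99% of all genes tested. Next in the order of mean levels came RXRi at 6 h in Chac1, Trib3, Atf4 and Nupr1, the 0 h group in Asns, Psat1 and Phgdh, and DMSO at 24 h in Ddit3. The highest mean of Sesn2 was that at 0 h (17.1 ± 0.101 RPKM, SD, n = 2 mice), and that of Gdf15 was with 9cisRA at 6 h (15.3 ± 0.998 RPKM).

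Among the transcription regulators Atf4, Ddit3 and Nupr1, Atf4 changed least on the log2 scale. Atf4 stood at 256, 253, 244 and 245 RPKM in the RXRi libraries at 24 h, against 176, 171, 165 and 169 RPKM in the DMSO libraries. The groups did not overlap, and the difference was 0.55 ± 0.043 on the log2 scale (adjusted p = 1.11e-07). Ddit3, which encodes CHOP, a factor tied to cell death under prolonged stress, stood at 40.3, 37.1, 33.8 and 31.1 RPKM with RXRi, against 16.8, 17.0, 15.8 and 16.1 RPKM with DMSO. The groups did not overlap, and the change was 1.09 ± 0.10 (adjusted p = 7.25e-07). Nupr1, a small chromatin protein induced by many stresses, stood at 282, 323, 285 and 284 RPKM with RXRi, against 54.0, 55.0, 66.2 and 60.6 RPKM with DMSO. The RXRi libraries all lay far above the DMSO libraries, and the change was 2.31 ± 0.13 (adjusted p = 3.29e-09).

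Chac1 and Trib3 were low in DMSO. On the scale of log2(RPKM + 0.5) Chac1 changed most of the 10, then Nupr1 and Trib3, but with a pseudocount of 0.1 Trib3 (2.38) came before Nupr1 (2.32). Chac1, whose product breaks down glutathione, stood at 24.0, 24.7, 21.3 and 21.4 RPKM with RXRi at 24 h, against 3.17, 4.01, 3.45 and 3.29 RPKM with DMSO. The change of 2.55 ± 0.11 (adjusted p = 2.95e-10) had a 95% interval of 2.32 to 2.79. Trib3, a pseudokinase that binds ATF4 and CHOP and restrains them, stood at 25.1, 24.1, 21.3 and 21.0 RPKM with RXRi, against 3.79, 3.87, 4.36 and 5.36 RPKM with DMSO. The change was 2.28 ± 0.12 (adjusted p = 1.46e-09), and the mouse 1 libraries were the higher ones with RXRi and the lower ones with DMSO.

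The genes of amino acid synthesis were abundant in every group and rose by less. Asns, which makes asparagine, stood at 162, 163, 155 and 157 RPKM with RXRi at 24 h, against 82.6, 88.9, 79.2 and 78.6 RPKM with DMSO, a change of 0.95 ± 0.044 (adjusted p = 6.6e-10). Phgdh and Psat1 encode the enzymes of the first and the second step from glycolysis to serine. Psat1 stood at 105, 101, 99.0 and 107 RPKM with RXRi, against 56.7, 57.1, 57.2 and 55.7 RPKM with DMSO, and Phgdh at 63.0, 60.3, 60.5 and 61.9 RPKM with RXRi, against 36.5, 32.8, 36.9 and 32.8 RPKM with DMSO. Neither gene's groups overlapped, and the changes were 0.86 ± 0.053 for Psat1 (adjusted p = 1.09e-08) and 0.81 ± 0.060 for Phgdh (adjusted p = 6.41e-08).

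The remaining pair did not pass the test with RXRi at 24 h. Sesn2, which encodes a leucine-binding inhibitor of the growth kinase mTORC1 and is also a p53 target, stood at 14.4, 14.0, 16.7 and 16.2 RPKM with RXRi, against 12.6, 12.3, 16.6 and 14.3 RPKM with DMSO. The difference of 0.14 ± 0.076 had an interval of -0.025 to 0.30 (adjusted p = 0.13), and the groups overlapped, with a call in 3 of 24 alternative settings. Gdf15, a secreted stress hormone that acts on the brainstem to lower appetite, stood at 7.08, 5.99, 8.04 and 8.16 RPKM with RXRi, against 6.12, 6.24, 7.13 and 6.39 RPKM with DMSO. Its difference was 0.16 ± 0.12 with an interval of -0.10 to 0.42 (adjusted p = 0.273).

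**Figure D2:**
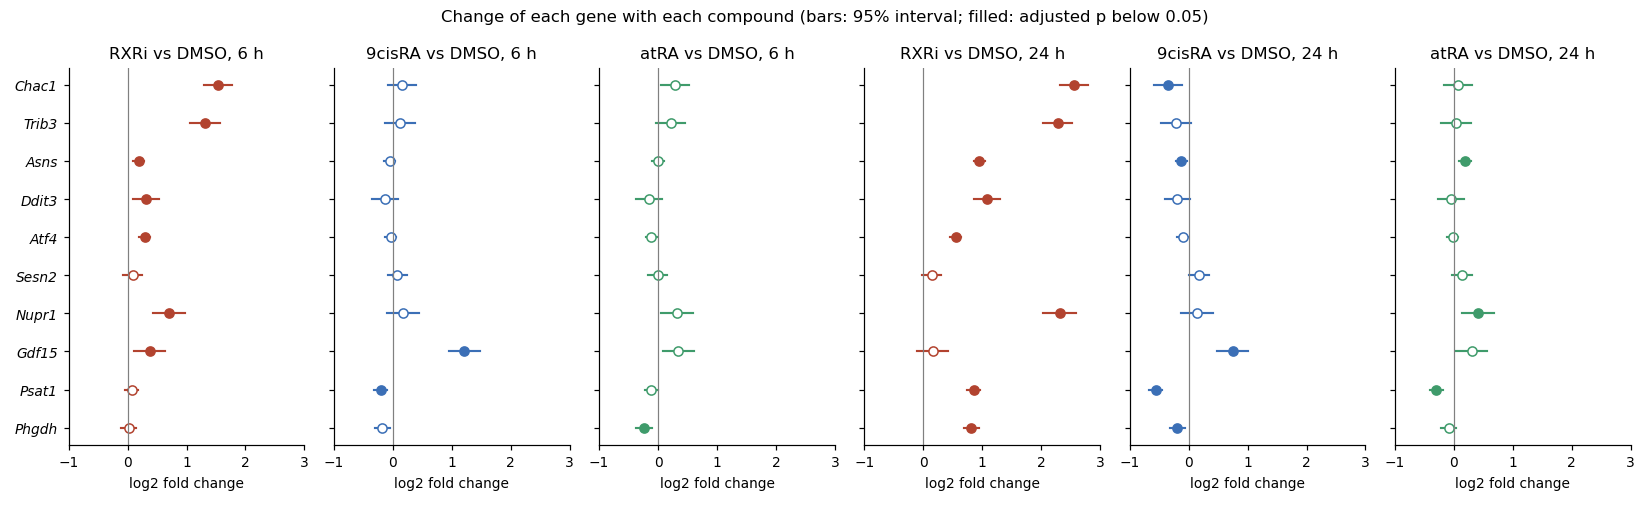
Log2 fold change against DMSO (horizontal axis) of the 10 genes with RXRi, 9cisRA and atRA at 6 h and at 24 h, with 95% intervals as bars and filled points for an adjusted p below 0.05. With RXRi 7 genes are filled to the right of 0 at 6 h and 8 at 24 h. Of all genes tested, 10.6% were called higher with RXRi at 6 h and 31.1% at 24 h. With the retinoic acids the largest change is that of Gdf15 with 9cisRA at 6 h, at 1.21.

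At 6 h with RXRi, 7 of the 10 genes were already higher than with DMSO and none was lower, where 25.2% of all genes tested were called in either direction and 10.6% were called higher. The median of the 10 genes was 0.30, beside -0.0040 over all genes tested. Chac1 stood at 11.5, 11.0, 11.1 and 12.4 RPKM with RXRi at 6 h, against 3.74, 4.62, 3.72 and 2.71 RPKM with DMSO, and Trib3 at 5.59, 6.00, 6.69 and 8.23 RPKM with RXRi, against 2.03, 2.68, 2.30 and 2.37 RPKM with DMSO. In neither gene did the groups overlap, and the changes were 1.53 ± 0.11 for Chac1 (adjusted p = 3.53e-07) and 1.32 ± 0.12 for Trib3 (adjusted p = 2.18e-06). Atf4 stood at 214, 224, 214 and 232 RPKM with RXRi, against 181, 179.9, 180.0 and 182 RPKM with DMSO, a change of 0.29 ± 0.043 (adjusted p = 0.000213) without overlap.

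The other calls at 6 h were smaller relative to their spread. Nupr1 stood at 88.1, 88.3, 114 and 125 RPKM with RXRi, against 56.1, 46.4, 75.2 and 80.6 RPKM with DMSO, so that mouse 2 was higher than mouse 1 in both groups. Its change was 0.70 ± 0.13 (adjusted p = 0.00112), and without the mouse term its adjusted p was 0.0794. Without that term Asns (0.19 ± 0.044, adjusted p = 0.0072 with it), Ddit3 (0.32 ± 0.10, adjusted p = 0.0365) and Gdf15 (0.38 ± 0.12, adjusted p = 0.0346) were not called either, at adjusted p of 0.0635, 0.0543 and 0.0614 in that order, which leaves 3 genes. In Gdf15 the groups overlapped (5.80, 10.3, 8.58 and 9.18 RPKM with RXRi, against 7.90, 5.11, 6.41 and 5.96 RPKM with DMSO), and the gene was not called in 8 of its 24 alternative settings. Ddit3 was not called in 5 of 24. The serine enzymes had not moved beyond their error: Psat1 differed by 0.069 (interval -0.045 to 0.18) and Phgdh by 0.021 (interval -0.11 to 0.15).

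The change with RXRi was larger at 24 h than at 6 h in the 8 genes called at 24 h, by a test of the difference itself. Of all genes tested, 35.1% were called in that test. The added log2 change was 1.61 ± 0.18 for Nupr1 (adjusted p = 1.65e-05), 1.02 ± 0.15 for Chac1 (adjusted p = 0.000221) and 0.96 ± 0.16 for Trib3 (adjusted p = 0.00051). Phgdh, Psat1, Ddit3 and Asns followed within a narrow range of 0.76 to 0.79, and Atf4 gained 0.26 ± 0.060 (adjusted p = 0.0046). The Atf4 difference was not called without mouse 2, at an adjusted p of 0.0665. Sesn2 (0.054, interval -0.18 to 0.29) and Gdf15 (-0.22, interval -0.59 to 0.15) showed no called difference between the times.

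**Figure D3:**
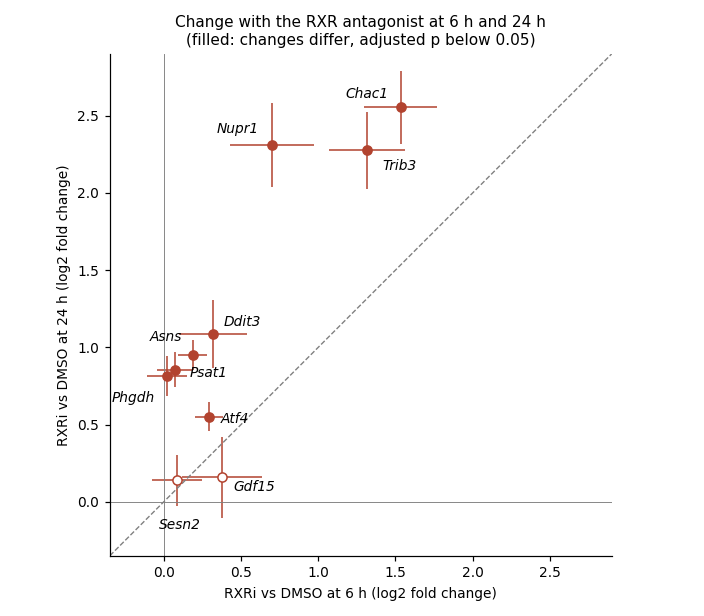
Log2 fold change with RXRi over DMSO at 6 h (horizontal axis) and at 24 h (vertical axis) for the 10 genes, with 95% intervals, a dashed line of equal change and filled points where the changes differ between times. Chac1, Trib3 and Nupr1 stand at the top, Psat1 and Phgdh lie near 0 at 6 h and above 0.8 at 24 h, and Sesn2 and Gdf15 (open) lie near or below the line.

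Most other targets and partners of ATF4 and CHOP were also higher with RXRi at 24 h. Of 34 tested, 26 were higher and 2 lower, with a median of 0.71, where 31.1% of all genes tested were higher and 30.4% lower. At 6 h 16 were higher and 2 lower, with a median of 0.18, where 10.6% of all genes were higher and 14.6% lower. Vldlr, a lipoprotein receptor, changed most at 24 h (2.83 ± 0.10, adjusted p = 7.14e-11), with 9.35 ± 0.861 RPKM with RXRi, against 0.886 ± 0.0555 RPKM with DMSO (SD, n = 2 mice). The glycine transporter Slc6a9 (1.72 ± 0.079) and the angiogenic growth factor Vegfa (1.48 ± 0.076) came next by p. The 2 lower genes were Aldh18a1 (-0.49 ± 0.049), which starts proline synthesis, and Cth (-0.23 ± 0.063), which makes cysteine from cystathionine. Both fall outside the naming rule and were picked after their values were seen. At 6 h the smallest p-values were those of Vldlr (1.68 ± 0.10), the bZIP repressor Jdp2 (1.03 ± 0.098) and Mthfd2 (0.53 ± 0.050), a mitochondrial folate enzyme.

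The serine, glycine and one-carbon enzymes other than Psat1 and Phgdh were split at 24 h with RXRi, 8 higher and 5 lower of 13, where 61.5% of all genes were called in either direction. Psph, the last enzyme of serine synthesis, rose by 1.33 ± 0.065 (adjusted p = 1.12e-09), at 38.7 ± 3.25 RPKM with RXRi, against 15.1 ± 0.188 RPKM with DMSO (SD, n = 2 mice). The mitochondrial folate enzymes Aldh1l2 (2.33 ± 0.10) and Mthfd2 (0.85 ± 0.050) rose too. Aldh1l2 stood at 2.82 ± 0.143 RPKM with RXRi, against 0.165 ± 0.105 RPKM with DMSO. Outside RXRi at 24 h its highest group mean was 0.283 RPKM, at 0 h. Aldh1l2 could thus meet the filter of 1 RPKM in 4 libraries only with the RXRi libraries at 24 h. Its call there, which is among the 8 higher, is no independent support. Mthfd2 and Shmt2 also stand in the ATF4 list. Of 20 cytosolic aminoacyl-tRNA synthetases, which charge tRNAs, 9 were higher and 2 lower, with a median of 0.12. Of all genes tested, 31.1% were higher and 30.4% lower. The share of synthetases called in either direction was below the 61.5% of all genes. Among them the smallest p-values were those of Cars (0.79 ± 0.049), Wars (0.91 ± 0.059) and Aars (0.60 ± 0.043).

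Upstream parts and neighbouring stress pathways had smaller medians, and the shares called, in either direction, were below or near the 61.5% of all genes tested. Of 16 genes for eIF2 kinases, eIF2, eIF2B and eIF2 phosphatase subunits, 6 were higher and 2 lower with RXRi at 24 h, with a median of 0.13. The phosphatase subunit Ppp1r15a, which reverses eIF2 phosphorylation, rose by 0.85 ± 0.075 (adjusted p = 4.04e-07), the related Ppp1r15b by 0.23 ± 0.050, and the eIF2 subunit Eif2s3x was lower (-0.21 ± 0.045). Of 23 ER chaperones and genes of the IRE1 and ATF6 branches of the ER stress response, 3 were higher and 7 lower, with a median of -0.065. Sdf2l1, an ER chaperone partner, was lower (-0.52 ± 0.044, adjusted p = 2.44e-07), as was the disulphide isomerase Pdia6 (-0.25 ± 0.046), whereas Ern2, the epithelial form of IRE1, was higher (0.85 ± 0.11). Of 18 p53 targets, 5 were higher and 2 lower, and the sestrin Sesn1 was among the lower ones (-1.44 ± 0.083), with Fas (-1.12 ± 0.082), while Btg2 was higher (0.45 ± 0.049). Of 12 glutathione and NRF2 genes, 2 were higher and 6 lower, with Ggt1 (-4.88 ± 0.27), which cleaves extracellular glutathione, and Gclm (-0.54 ± 0.054) lower and the haem-degrading Hmox1 higher (0.65 ± 0.052).

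**Figure D4:**
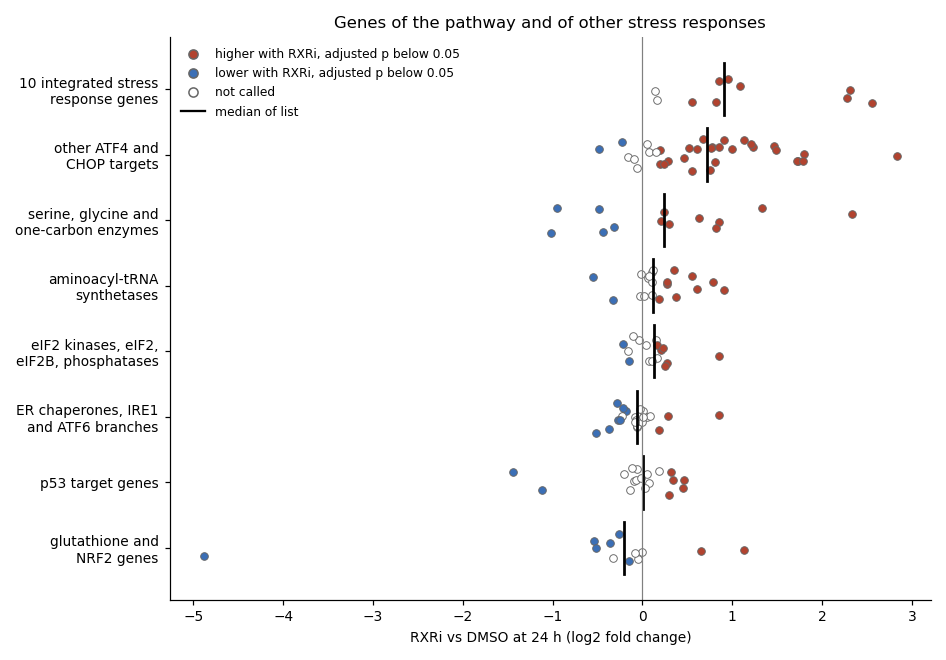
Log2 fold change with RXRi over DMSO at 24 h (horizontal axis) for each tested gene of 8 lists, with colour for the call, a black line at the median of each list and vertical scatter within a list only to separate points. The 10 genes (median 0.90) and the other ATF4 and CHOP targets (median 0.71) lie to the right of 0, and the ER chaperones centre near 0.

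Markers of the cell types in the organoid moved in the same comparison. The 8 enterocyte markers summed to 2829 to 4548 RPKM in RXRi libraries at 24 h, against 8509 to 14012 RPKM in DMSO libraries, and 8 of 8 were lower, where 30.4% of all genes tested were lower. The Paneth cell markers summed to 82.5 to 258 RPKM with RXRi, against 318 to 476 RPKM with DMSO (6 of 7 lower), and the stem cell markers to 15.3 to 20.9 RPKM, against 37.4 to 47.8 RPKM (3 of 4 tested lower). The dividing cell markers summed to 201 to 212 RPKM with RXRi, against 285 to 312 RPKM with DMSO (5 of 5 lower). The goblet cell markers summed to 559.8 to 845 RPKM with RXRi, against 454 to 519 RPKM with DMSO. Of these, 4 of 7 were higher, where 31.1% of all genes tested were higher. The 5 listed enteroendocrine markers summed to 31.0 to 37.1 RPKM with RXRi, against 29.9 to 35.6 RPKM with DMSO. At 6 h 6 of 8 enterocyte markers were lower, beside 14.6% of all genes tested, with sums of 679.9 to 1172 RPKM with RXRi, against 1010 to 1969 RPKM with DMSO. No listed marker was at 0 throughout a group, and the part of cell composition in the results for RXRi was not tested.

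With 9cisRA Gdf15 was higher and Psat1 lower than with DMSO at both times. At 6 h 1 gene was higher and 1 lower, where 8.04% of all genes tested were called. Gdf15 stood at 16.6, 12.7, 17.9 and 14.2 RPKM with 9cisRA, against 7.90, 5.11, 6.41 and 5.96 RPKM with DMSO, with every 9cisRA library above every DMSO library. The change was 1.21 ± 0.12 (adjusted p = 3.19e-05), or 2.32-fold. Psat1 was lower, with a change of -0.21 ± 0.053 (adjusted p = 0.0281), and without mouse 1 only 1 of the 10 genes was called.

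At 24 h with 9cisRA, 1 of the 10 genes was higher and 4 were lower, a share close to the 47.9% of all genes called. Gdf15 stood at 12.1, 10.9, 13.1 and 9.07 RPKM with 9cisRA, against 6.12, 6.24, 7.13 and 6.39 RPKM with DMSO, without overlap, a change of 0.75 ± 0.12 (adjusted p = 0.000259). Psat1 stood at 39.4, 36.7, 37.3 and 40.0 RPKM with 9cisRA, against 56.7, 57.1, 57.2 and 55.7 RPKM with DMSO, and the difference of -0.56 ± 0.053 (adjusted p = 3.71e-06) was called in 24 of 24 alternative settings. The other lower genes were Chac1 (-0.35 ± 0.11, adjusted p = 0.018), Phgdh (-0.19 ± 0.060, adjusted p = 0.0195) and Asns (-0.12 ± 0.044, adjusted p = 0.0371). These 3 calls were lost without mouse 1, and Asns was called in 16 of 24 settings. Scaled to the sum of reads per library, which moved the median of all genes by -0.13, 8 of the 10 genes were called. That scaling moves all genes, so the 47.9% from the main scaling is not the share to set beside this count. The effect of 9cisRA was lower at 24 h than at 6 h for Chac1 (-0.51 ± 0.15, adjusted p = 0.0378) and Psat1 (-0.35 ± 0.075, adjusted p = 0.0073), where 18% of all genes were called.

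With atRA few of the 10 genes were called. At 6 h Phgdh alone was called, with a change of -0.24 ± 0.060 (adjusted p = 0.0365), where 4.66% of all genes were called, and it stood at 36.9, 32.0, 36.4 and 30.9 RPKM with atRA, against 42.8, 41.9, 40.0 and 36.1 RPKM with DMSO. The groups overlapped, and the call was lost in 7 of 24 alternative settings. At 24 h 2 genes were higher and 1 lower, where 38.0% of all genes were called. Psat1 stood at 44.3, 44.3, 48.6 and 46.9 RPKM with atRA, against 56.7, 57.1, 57.2 and 55.7 RPKM with DMSO, a difference of -0.30 ± 0.053 (adjusted p = 0.000779) without overlap. Asns was higher (0.19 ± 0.044, adjusted p = 0.00474), as was Nupr1 (0.41 ± 0.13, adjusted p = 0.0222), at 76.3, 67.1, 81.6 and 89.2 RPKM with atRA, against 54.0, 55.0, 66.2 and 60.6 RPKM with DMSO. Neither gene was called after quantile normalization (adjusted p = 0.0909 for Asns and 0.107 for Nupr1) or scaling to read sums (0.105 for Asns and 0.0747 for Nupr1), and Nupr1 was not called without the mouse term (0.255). No difference between the atRA effects at 24 h and at 6 h was called by limma among the 10 genes, where 17.1% of all genes were, although 2 had an unadjusted p below 0.05 and 2 were called by voom on recovered reads.

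The wider lists held calls in both directions with the retinoic acids at 24 h, where 47.9% of all genes were called with 9cisRA (24.4% higher and 23.5% lower) and 38.0% with atRA (19.4% higher and 18.6% lower). Of 34 other ATF4 and CHOP targets, 10 were higher and 12 lower with 9cisRA, and 10 higher and 9 lower with atRA, both set against the same DMSO libraries. The death receptor Tnfrsf10b was higher with 9cisRA (0.79 ± 0.052) and with atRA (0.76 ± 0.052), and Mthfd2 (-0.51 ± 0.050) and Cth (-0.60 ± 0.063) were lower with 9cisRA. Of 13 serine, glycine and one-carbon enzymes, 10 were lower and 1 higher with 9cisRA, and 9 lower and 1 higher with atRA. The cytosolic folate enzyme Mthfd1 was among the lower ones with 9cisRA (-0.47 ± 0.045) and with atRA (-0.40 ± 0.045). The dividing cell markers were lower for 4 of 5 with either compound (median -0.71 with 9cisRA and -0.57 with atRA), and their part in these values was not tested.

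At equal dose the isomers differed in 1 of the 10 genes at each time. At 6 h Gdf15 was higher with 9cisRA than with atRA, at 16.6, 12.7, 17.9 and 14.2 RPKM with 9cisRA, against 6.69, 7.30, 10.6 and 8.33 RPKM with atRA. The difference was 0.87 ± 0.12 (adjusted p = 0.00488), where 1.72% of all genes were called, and it was not called with either mouse left out. At 24 h Asns was lower with 9cisRA than with atRA, at 76.5, 76.4, 72.2 and 77.2 RPKM with 9cisRA, against 96.5, 97.7, 87.9 and 93.6 RPKM with atRA. The difference was -0.31 ± 0.044 (adjusted p = 0.00669), where 0.467% of all genes were called, and without the mouse term its adjusted p was 0.142. In 4 of the 10 genes every 9cisRA library lay below every atRA library at 24 h, Asns among them, as in 2.98% of all genes tested. For Psat1 the difference of -0.26 ± 0.053 had an interval of -0.37 to -0.15 and an adjusted p of 0.0522, for Chac1 it was -0.43 ± 0.11 with an interval of -0.66 to -0.19 and an adjusted p of 0.135, and for Atf4 -0.080 ± 0.043 with an interval of -0.17 to 0.013. Gdf15 at 24 h differed by 0.45 ± 0.12 (interval 0.19 to 0.71, adjusted p = 0.158). RXRi was given at 5 µM and the retinoic acids at 10 µM, so their effects stand side by side here without a test between them.

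In DMSO, 9 of the 10 genes were called at 24 h against 0 h, and Nupr1 was called in no comparison between DMSO or 0 h groups. At 6 h with DMSO, 1 gene was higher and 4 were lower than at 0 h, where 45.7% of all genes were called (22.3% higher and 23.4% lower), and at 24 h 2 were higher and 7 lower than at 0 h, where 59.4% were called (29.2% higher and 30.3% lower). Gdf15 was lower by the most, with 7.90, 5.11, 6.41 and 5.96 RPKM at 6 h, against 16.4, 10.4, 10.8 and 13.1 RPKM at 0 h, a change of -0.94 ± 0.12 (adjusted p = 4.59e-05). Phgdh changed by -0.32 ± 0.060 at 6 h and by -0.53 ± 0.060 at 24 h, each against 0 h, Psat1 by -0.28 ± 0.053 and -0.41 ± 0.053, and Asns by -0.25 ± 0.044 and -0.28 ± 0.044. Ddit3 and Trib3 were the genes that rose: at 24 h against 0 h Ddit3 changed by 0.76 ± 0.10 (adjusted p = 3.11e-05) and Trib3 by 0.63 ± 0.12 (adjusted p = 0.000387). Between 24 h and 6 h with DMSO the same pair was higher, Trib3 by 0.76 ± 0.12 and Ddit3 by 0.48 ± 0.10, and Phgdh changed by -0.21 ± 0.060, where 49.9% of all genes were called. The DMSO groups follow a change of medium as well as of time, and these cannot be told apart.

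Set against 0 h rather than DMSO, the levels with RXRi at 24 h were also the highest for the 8 genes. Phgdh, for example, stood at 63.0, 60.3, 60.5 and 61.9 RPKM with RXRi at 24 h, against 51.4, 49.6, 50.3 and 50.1 RPKM at 0 h, and Psat1 at 105, 101, 99.0 and 107 RPKM, against 75.6, 72.8, 80.4 and 73.4 RPKM. The margin was narrowest for Atf4, whose lowest RXRi library at 24 h held 244 RPKM, against 232 RPKM in the highest of the other 32 libraries, one of RXRi at 6 h. For Chac1 the corresponding values were 21.3 and 12.4 RPKM, for Trib3 21.0 and 8.23 RPKM and for Nupr1 282 and 125 RPKM. Across the 9 groups the highest mean of Chac1 was 8.70 times its lowest, which was that with 9cisRA at 24 h.

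Levels of the members over the 18 mouse-by-condition values, each mouse centred on its own mean, were most alike for Psat1 and Phgdh (r = 0.953), Chac1 and Atf4 (r = 0.953) and Trib3 and Ddit3 (r = 0.936). The least alike were Ddit3 and Gdf15 (r = -0.45). These 18 values share 2 mice, and RXRi at 24 h lies far from the rest, so the values of r are descriptions only. The non-member genes most like Chac1 were Med13l (r = 0.966), Ttc39a, Ripk3, Spire1 and Pla2g15. Those most like Trib3 were Vldlr (r = 0.965), P4ha1, Ephx4, Ppp3ca and Dapk1, and those most like Asns were Fam174b (r = 0.974), Adm2, Aldh1l2, Vopp1 and Psph. Outside RXRi at 24 h the highest group mean was 0.769 RPKM for Ephx4, 0.731 RPKM for Dapk1 and 0.283 RPKM for Aldh1l2. All lie below the 1 RPKM of the filter, which thus favoured such genes where they were high in that group. Their likeness is no independent support. Med13l, for example, stood at 4.72 ± 0.300 RPKM with RXRi at 24 h, against 2.45 ± 0.140 RPKM with DMSO, Ripk3 at 295 ± 6.81 RPKM, against 109.8 ± 9.09 RPKM, and Adm2 at 10.1 ± 0.0881 RPKM, against 1.39 ± 0.0546 RPKM (SD, n = 2 mice).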

How the data were processed

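Sequencing libraries (TruSeq mRNA kit, per the labels) of 36 organoid RNA samples were analysed from 1 table of 12652 genes. Its values are RPKM as deposited by the authors. Tools named in the submitters' processing notes are STAR 2.5.2b and bcl2fastq 2.17, with build mm10; the read counter, the use of strand and the RPKM scaling are not given in the sources used here. Whole reads could be recovered from the RPKM for 100% of genes (tolerance 0.05 reads), with 19.6 to 30.7 M reads per library, and the library divisor followed their sum with an SD of the log ratio of 5.47%.

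Tests ran on log2(RPKM + 0.5) for genes that reached 1 RPKM in 4 or more libraries. Duplicates were averaged, giving 18 values, and 1 limma model (limma 3.58.1, R 4.3.3) with 9 group means, a mouse term and an intensity trend gave 14 comparisons, two-sided, adjusted by Benjamini-Hochberg over all 11361 genes within a comparison. The procedure was run on simulated data with planted changes, drawn from the same model with independent errors. Such data cannot show whether calls from 2 mice hold in other animals. Mice pair the samples because the labels name the animal: mouse differences correlated between conditions with a median r of 0.441 (0.0372 to 0.662). Duplicate numbers showed no such pairing in the median (-0.011), but their range (-0.412 to 0.541) overlapped that of the mice.

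The members, the 16 other gene lists and the tests were chosen with earlier results of these data known. Named genes are the 10 members, up to 3 called genes of smallest p per list and comparison described, and the 5 genes most correlated with Chac1, Trib3 and Asns. Alternatives changed the pseudocount, filter, scaling, mouse term, treatment of duplicates, variance trend, groups fitted and threshold, and left out each library and mouse. Scaling to read sums and voom on recovered reads were added after the data were seen. GENCODE M21 gave gene positions, matched by Entrez identifier (Ddit3 has a second, overlapping entry), and RefSeq gave promoters.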

Additional observations from a re-analysis of the deposited data

Results flagged for a closer look

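Among 90 sets of 4 libraries (10 genes in 9 groups), 4 held a library far from the other 3 by Dixon's test at the 95% level, about as many as chance gives at 1 in 20. With 9cisRA at 24 h, Asns was at 72.2 RPKM in 1 library and 76.4 to 77.2 RPKM in the others, and Ddit3 at 16.0 RPKM in 1 library and 13.7 to 14.0 RPKM in the others. With atRA at 24 h, Atf4 was at 175 RPKM in 1 library and 165 to 166 RPKM in the others. With RXRi at 24 h, Nupr1 was at 323 RPKM in 1 library and 282 to 285 RPKM in the others.

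The effect of a compound differed between 24 h and 6 h, by the test of that difference, for 10 pairs of gene and compound. For 9cisRA the effect at 24 h minus that at 6 h was -0.51 (log2) for Chac1 and -0.35 for Psat1. For RXRi it was 1.61 for Nupr1, 1.02 for Chac1, 0.96 for Trib3, 0.79 for Phgdh, 0.79 for Psat1, 0.77 for Ddit3, 0.76 for Asns and 0.26 for Atf4. Both mice showed the direction of each of these 10 differences.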

How the results depend on the processing

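Of 3600 combinations of gene, comparison and alternative setting, 3412 kept their side of the threshold, 104 gained a call and 84 lost one. None reversed a direction called in either fit. Where neither fit gave a call the sign was not compared, and it could change. Ddit3 with atRA at 24 h, for example, ranged from -0.19 to 0.11 over its alternative settings. For RXRi against DMSO at 24 h, 237 of 240 kept their side of the threshold, and each of the 8 called genes stayed called in all 24 settings. Numbers of the 10 genes called that moved by more than 1.5 times were the following. Without the mouse (replicate) block they were 3 for RXRi against DMSO at 6 h (7 with it), 0 for atRA against DMSO at 6 h (1), 0 for 9cisRA against atRA at 24 h (1) and 1 for the 9cisRA effect over time (2). With 36 libraries as separate samples, with or without a block of mouse and duplicate number, or with voom, they were 3 for atRA against DMSO at 6 h, 3 for 9cisRA against atRA at 24 h and 2 for the atRA effect (0). For atRA against DMSO at 6 h the number was also 0 without the intensity trend or at a threshold of 0.01, and 2 with only the groups compared. With quantile normalization it was 1 for atRA against DMSO at 24 h (3), 2 for 9cisRA against atRA at 24 h, 6 for DMSO at 24 h against 6 h (3), 1 for the atRA effect and 1 for the 9cisRA effect. With read-sum scaling it was 8 for 9cisRA against DMSO at 24 h (5), 2 for 9cisRA against atRA at 24 h, 6 for DMSO at 24 h against 6 h, 1 for the atRA effect and 5 for the 9cisRA effect. Median-of-ratios scaling gave 2 and only the groups compared gave 5 for 9cisRA against atRA at 24 h, only the groups compared gave 1 for the 9cisRA effect, and a mean of at least 5 RPKM gave 1 for the atRA effect. At a threshold of 0.01 it was 1 for 9cisRA against DMSO at 6 h (2), 2 at 24 h and 1 for the 9cisRA effect. Without mouse 1 it was 1 for 9cisRA against DMSO at 6 h, 3 at 24 h, 0 and 2 for 9cisRA against atRA at 6 h and 24 h, and 1 for the 9cisRA effect. Without mouse 2 it was 0 and 2 for 9cisRA against atRA at 6 h and 24 h and 5 for DMSO at 24 h against 6 h. The cause was not tested.

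Leaving out 1 library gave 0 to 2 genes for atRA against DMSO at 6 h (0 without the second atRA library of either mouse or the first DMSO library of mouse 2, and 2 without the first DMSO library of mouse 1), 3 to 5 for atRA against DMSO at 24 h (5 without the first DMSO library of mouse 2), and 3 to 5 for 9cisRA against DMSO at 24 h (3 without the second DMSO library of mouse 1). It gave 1 to 2 for 9cisRA against atRA at 24 h (2 without the first 9cisRA library of mouse 1 or the second 9cisRA or atRA library of mouse 2) and 3 to 5 for DMSO at 24 h against 6 h (5 without the first 24 h DMSO library of mouse 2). The atRA effect gave 0 to 1 (1 without the first atRA library of mouse 1 at either time, the first atRA library of mouse 2 at 24 h, the second DMSO library of mouse 1 at either time or that of mouse 2 at 6 h). The 9cisRA effect gave 1 to 3 (1 without the first 9cisRA library of mouse 2 at either time or the second DMSO library of mouse 1 at 24 h). A fit without a mouse takes the spread between duplicates of 1 culture. The low read numbers of Chac1, Trib3, Ddit3 and Gdf15 outside RXRi at 24 h and the n of 2 mice limit the smaller differences.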

Other observations

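Most cytosolic aminoacyl-tRNA synthetases were lower in DMSO than at 0 h. At 6 h against 0 h, 18 of 20 were lower and none higher (median -0.27, beside -0.015 over all genes tested, 23.4% of which were lower), and at 24 h against 0 h 17 were lower and none higher (median -0.33, beside -0.011 over all genes tested, 30.3% of which were lower). Of 23 ER chaperones and genes of the IRE1 and ATF6 branches, 10 were higher and 2 lower at 24 h against 0 h (median 0.12). The share called in either direction was below the 59.4% of all genes, of which 29.2% were higher and 30.3% lower.

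Of 12 glutathione and NRF2 genes, which guard against oxidants, 6 were higher and none lower with 9cisRA at 24 h (median 0.22), and 6 were higher and 1 lower with atRA (median 0.24), with the same DMSO libraries behind both. Of all genes, 47.9% were called with 9cisRA (24.4% higher and 23.5% lower) and 38.0% with atRA (19.4% higher and 18.6% lower). With 9cisRA the share of this list called in either direction was close to that of all genes, but all its calls were higher. Srxn1, which repairs oxidised peroxiredoxins, rose by 0.77 ± 0.044 with 9cisRA and by 0.76 ± 0.044 with atRA, and Hmox1 by 0.55 ± 0.052 with 9cisRA and by 0.57 ± 0.052 with atRA.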
